A study of Mus musculus with 2 samples.

Results

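The genes described here serve digestion, absorption and the brush border in enterocytes, the absorptive cells of the intestinal villus. They are 30 host genes chosen by name, and every circular RNA (circRNA) whose host gene in the deposited lists is exactly one of these names was taken. Of the 30, 27 had an entry, giving 7 of the 18438 entries of the library labelled ISC and 125 of the 18324 entries of the library labelled non-ISC. Over both libraries these were 132 of 31496 circRNAs, from 27 of 8174 host genes. Mucdhl, Fabp1 and Maf had no entry. RefSeq lists Mucdhl as an older name of Cdhr5, which is also among the 30. The 30 names, called 30 genes below, therefore stand for 29 genes.

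Enterocytes carry microvilli whose membrane holds enzymes that split sugars and peptides, and transporters that take up the products. Absorbed fat is packed into lipoproteins and released toward the lymph, and iron leaves the cell on its basal side. A circRNA is a closed RNA formed when the end of an exon (the donor) is joined to the start of the same or an earlier exon (the acceptor). Reads across that back-splice junction mark it.

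Cells from the intestine of Lgr5GFP-CreERT2 mice, 2 months old, were separated by flow cytometry. Those positive for Lgr5 are labelled ISC (intestinal stem cell), and those without it non-ISC. Both fractions carried the same allele and no treatment is given in the labels. The allele reports Lgr5, a gene of crypt base stem cells, with a fluorescent protein. The sources used here do not say how many mice were pooled. Each group had 1 library, so no difference has a replicate check, no test between cell types was possible, and ratios compare these libraries only.

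The library labelled ISC held 156582 junction reads and the library labelled non-ISC 76331, so that a limit of 3 reads comes to 19.2 and 39.3 per 1000000 junction reads. The labels went against their markers. Of 9 stem cell markers, 4 had at least 10 reads and all 4 were lower in the library labelled ISC, with 10 reads against 161 over the list. Among all 2920 host genes with enough reads, 22.7% were lower. Smoc2 (0 against 45), Prom1 (0 against 50) and Slc12a2 (0 against 26) reached 10 reads by the library labelled non-ISC alone, so this count follows in part from the minimum. Axin2 had 10 against 29, and Lgr5 itself, with 0 against 7, stayed under 10 reads. T lymphocyte markers had reads for 11 of 13 genes in the library labelled ISC and for 5 of 13 in the library labelled non-ISC, with 6680 reads against 120. Most of these reads came from Satb1 (4292 against 3), Bcl11b (1013 against 107) and Themis (784 against 2). Cd3e and Cd8a were at 0 in both. Pan-epithelial markers had 3 reads against 243 over 8 genes. Most came from Myo5b (2 against 87), Pkp2 (0 against 73), Epcam (0 against 59) and Cdh1 (0 against 12). Krt8 (0 against 7), Cldn7 (0 against 4) and Krt19 (0 against 1) had under 10 reads. Krt18 went the other way, with 1 against 0. These marker levels run alongside most differences between the libraries below, and their part in those differences was not tested. The groups are therefore named by their labels. Fewer enterocytes and less circRNA per enterocyte cannot be told apart in such libraries.

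The back-splice sequences of the best covered circRNAs show which exons meet. They are the 9 with at least 10 junction reads in a library and both ends on exon ends of 1 transcript, written 5′ to 3′ on the gene's strand from GENCODE M21 transcripts on GRCm38. Each has the last 25 bases of the donor exon side in lower case and the first 25 bases of the acceptor exon in capitals. All lie inside coding sequence.
Cdhr2, chromosome 13, 54727910 to 54731452, + strand, exons 20 to 23: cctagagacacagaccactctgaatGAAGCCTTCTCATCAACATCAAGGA
Cdhr2, chromosome 13, 54731037 to 54731452, + strand, exons 22 to 23: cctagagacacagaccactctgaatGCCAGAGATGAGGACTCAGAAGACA
Heph, chromosome X, 96497848 to 96500719, + strand, exons 11 to 13: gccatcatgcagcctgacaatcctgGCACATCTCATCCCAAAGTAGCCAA
Heph, chromosome X, 96497848 to 96530425, + strand, exons 11 to 16: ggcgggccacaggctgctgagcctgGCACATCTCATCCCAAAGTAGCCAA
Enpep, chromosome 3, 129303715 to 129321501, - strand, exons 2 to 8: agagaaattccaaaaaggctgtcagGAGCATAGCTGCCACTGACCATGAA
Anpep, chromosome 7, 79825303 to 79827663, - strand, exons 15 to 19: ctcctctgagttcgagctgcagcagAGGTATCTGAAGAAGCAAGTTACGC
Abcc2, chromosome 19, 43810471 to 43818181, + strand, exons 12 to 18: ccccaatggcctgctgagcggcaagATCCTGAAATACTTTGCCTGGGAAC
Abcc2, chromosome 19, 43810471 to 43814814, + strand, exons 12 to 16: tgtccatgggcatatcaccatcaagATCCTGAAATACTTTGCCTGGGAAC
Abcc2, chromosome 19, 43796452 to 43805113, + strand, exons 3 to 9: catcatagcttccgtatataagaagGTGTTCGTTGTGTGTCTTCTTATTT

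The Cdhr2 pair shares its donor side, while the Heph pair and the first 2 Abcc2 circRNAs share their acceptor side. The shorter Cdhr2 circle, of 258 nt by annotation, lies within the span of the longer one. It is shown whole, with every annotated exon between its ends taken as joined. Capitals mark the 25 bases on each side of its junction, whose last base is joined to the first.
Cdhr2, exons 22 to 23: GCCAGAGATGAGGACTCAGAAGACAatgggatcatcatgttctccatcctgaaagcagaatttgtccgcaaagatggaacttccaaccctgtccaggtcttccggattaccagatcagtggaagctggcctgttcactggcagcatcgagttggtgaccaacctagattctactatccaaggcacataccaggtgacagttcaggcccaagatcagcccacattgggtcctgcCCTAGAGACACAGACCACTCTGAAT

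CircRNAs of enterocyte genes were scarce in the library labelled ISC. The 30 genes had 16 junction reads there, or 0.0102% of the library (95% exact binomial interval 0.00584 to 0.0166), against 632 reads, or 0.828% (0.765 to 0.895), in the library labelled non-ISC. The ratio of these shares was 0.0123 (95% exact conditional interval 0.00701 to 0.0202). An equal share would have given 1296 reads in the library labelled ISC. Intervals here cover counting error only. Scaled to the totals of reads per library that the RPM values imply, which moves every log2 ratio up by 1.49, the ratio was 0.0348. With deposited counts in place of junction reads it was 8.8e-04 when scaled to their own sum in each library, and 0.00405 when scaled to the totals of reads.

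No circRNA of these genes was listed in both libraries. Of 112 with a junction read, 7 had it in the library labelled ISC, 105 in the library labelled non-ISC and 0 in both. Of all 26265 circRNAs with a read, 4375 (16.7%) had reads in both. At most 7 of the 112 could have had reads in both, so this contrast follows in part from the few reads in the library labelled ISC. A missing entry was counted as 0 reads, although it need not be 0, so every ratio below rests on that count. A fold written as at least a value is a bound that puts 3 reads in place of 0 in the library labelled ISC.

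A host gene was called where the libraries together held 10 reads or more, the shares differed 2-fold or more and the interval left out 1. Of the 30 genes, 10 reached 10 reads, of which 10 had a lower call for the library labelled ISC and 0 a higher one. Among all 2920 host genes with enough reads, 22.7% were lower and 26.7% higher. All 10 reached the minimum in the library labelled non-ISC alone and none in the library labelled ISC, so their count follows in part from the minimum. Without any minimum, 24 genes had a junction read, of which 23 had the higher share in the library labelled non-ISC and 1, Dpp4, in the library labelled ISC. The interval left out 1 for 17 of the 24, all lower in the library labelled ISC. For the rest, among them Treh with 0 against 1, it held 1, so their direction is open. The share of all host genes lying in either direction was not computed. The median log2 ratio over these 24, with 0.5 read added, was -4.21, beside 0.34 over all 7256 host genes with a read. Of single circRNAs, 10 reached 10 reads, all with 0 reads in the library labelled ISC, so that a lower call followed for each once it passed the minimum. Among all 3659 circRNAs with enough reads, 23.0% were lower and 32.4% higher.

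**Figure D1:**
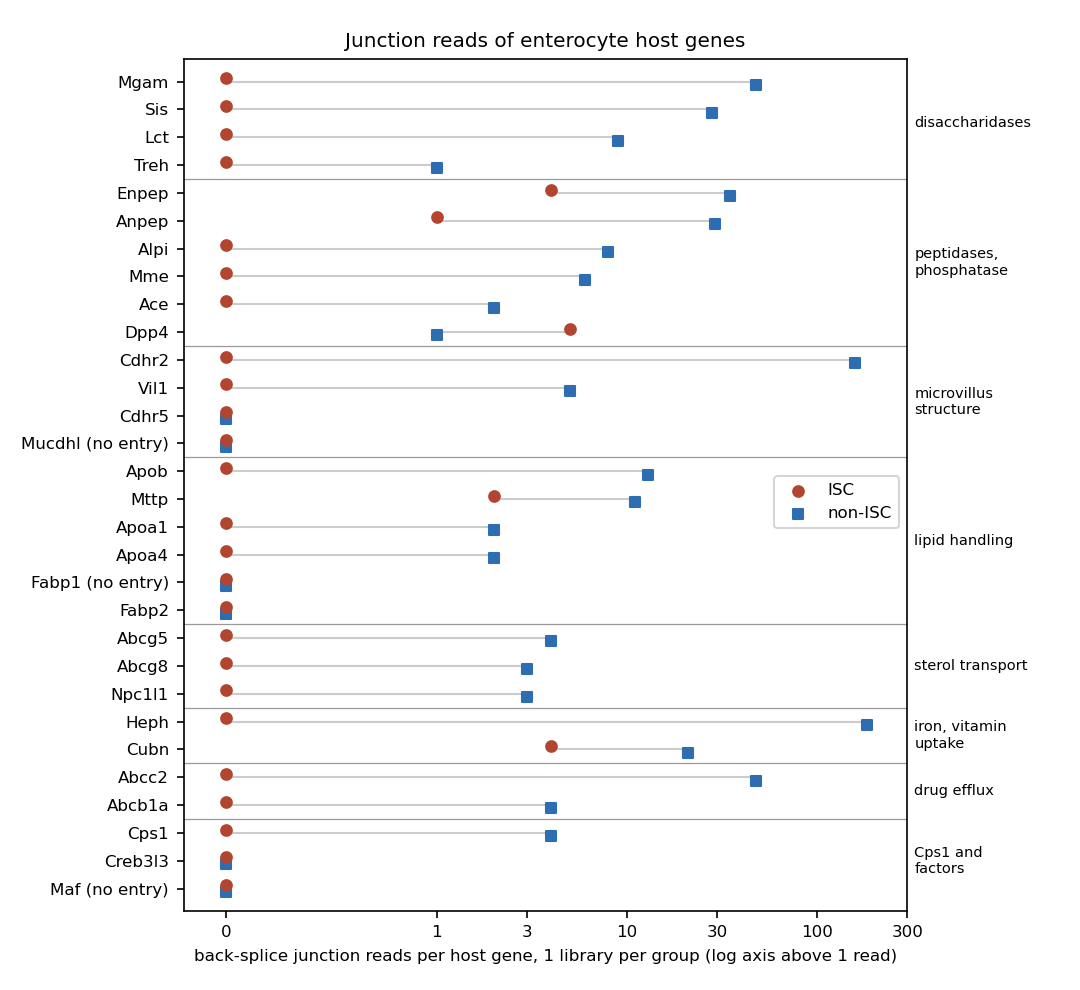
Junction reads (log axis above 1 read) of the 30 host genes in the library labelled ISC (circles) and in the library labelled non-ISC (squares), ordered by functional group, with 1 library per group. Heph and Cdhr2 stand at 0 against 185 and 160 reads, and Dpp4 has more reads in the library labelled ISC (5 against 1).

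Iron and vitamin uptake gave the most junction reads of any functional group, with 4 in the library labelled ISC against 206 in the library labelled non-ISC (ratio 0.00947, 0.00255 to 0.0246). Heph, the gene of hephaestin, a copper-containing ferroxidase that acts as iron leaves the enterocyte, had 0 reads against 185 on 12 circRNAs. This is at least 126-fold lower. Cubn, the gene of cubilin, a receptor for the complex of vitamin B12 and intrinsic factor, had 4 reads on 1 circRNA against 21 on 7 (ratio 0.0929, 0.0232 to 0.275). Without Heph the group's ratio is that of Cubn.

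The circRNA of Heph exons 11 to 13 had 106 reads, 57.3% (49.8 to 64.5) of the gene in the library labelled non-ISC, where it ranked 72nd of 12202 circRNAs. The circRNA of exons 11 to 16 had 40 reads and ranked 252nd. Both begin at the acceptor of exon 11, which 3 circRNAs used for 150 of 180 reads on exon ends. The donor of exon 13 was used by 3 circRNAs with 114 reads, and that of exon 16 by 3 with 47. Another 3 began at exon 3, with 12 reads. Heph thus kept a shared set of ends, joined in several combinations. The introns beside the leading circle are 11489 nt upstream and 26790 nt downstream.

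Cubn had its reads in the library labelled non-ISC spread thinly, with at most 7 on 1 circRNA. Its acceptor of exon 15 was used by 3 circRNAs, with 12 of the 15 reads on exon ends. In the library labelled ISC its circRNA joined exons 33 to 36 (chromosome 2, 13355568 to 13360370), with 4 reads, and shared no end with the others.

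Microvillus structure genes had 0 reads in the library labelled ISC against 165, at least 113-fold lower. Cdhr2, a protocadherin that links the tips of neighbouring microvilli, held 160 of them, at least 109-fold lower in the library labelled ISC. Its circRNA of exons 20 to 23 had 140 reads, 87.5% (81.4 to 92.2) of the gene, and ranked 43rd, the highest of all enterocyte circRNAs here. The circRNA of exons 22 to 23 had 20. Both end at the donor of exon 23, as the shared lower-case letters above show. Vil1, the actin bundler villin, had 0 reads against 5, and Cdhr5, the partner of Cdhr2 between microvilli, had an entry with a deposited count of 247 and 0 junction reads in the library labelled non-ISC.

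**Figure D2:**
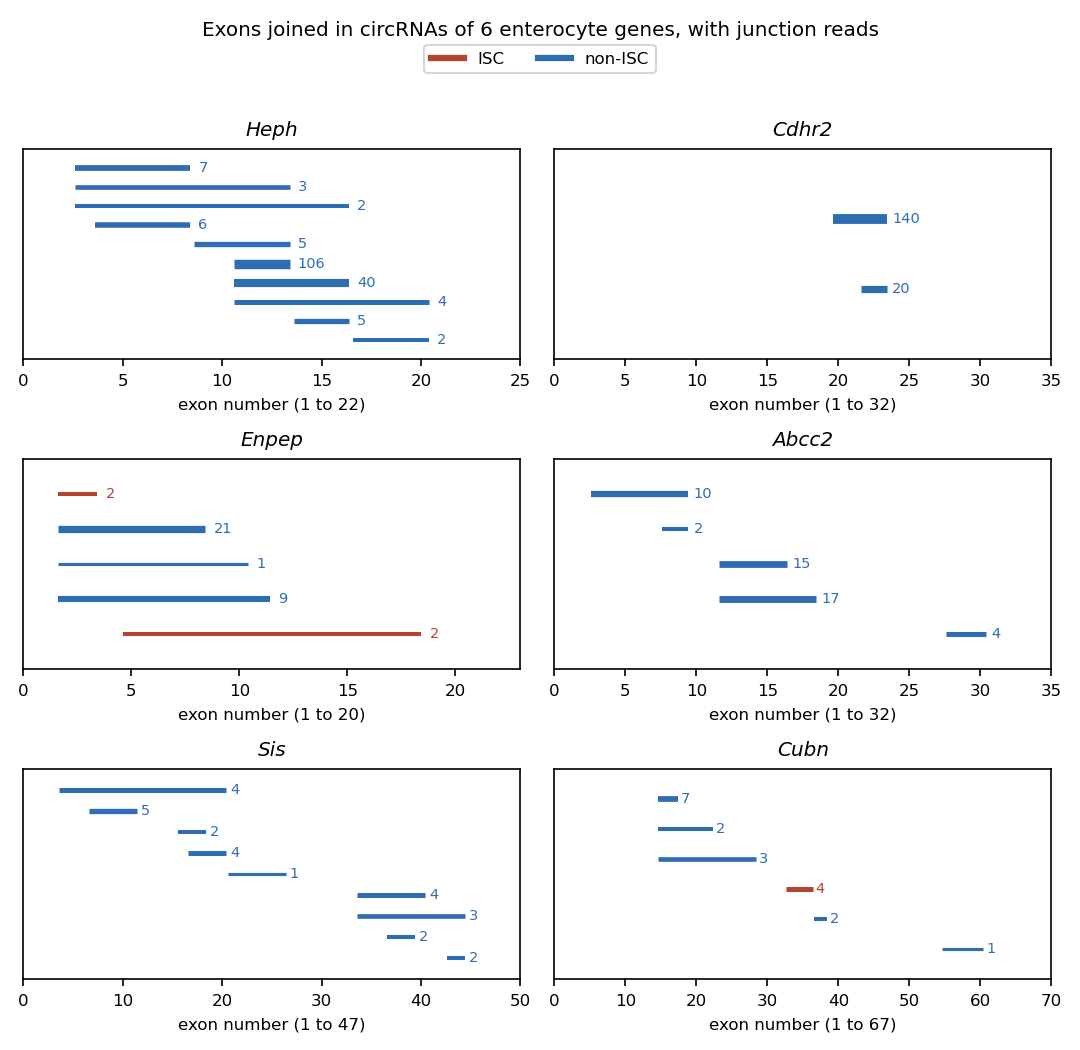
CircRNAs with both ends on exon ends of 1 transcript in 6 genes. Each bar runs from the first to the last exon enclosed (x axis, exon number), thicker with more reads, and the number beside it is its junction reads in the library labelled ISC (red) or non-ISC (blue). In Heph 3 bars start at exon 11 and in Enpep 4 bars at exon 2, while Sis bars are spread over the gene with at most 5 reads each.

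Disaccharidase genes also had 0 reads in the library labelled ISC, against 86, at least 58.8-fold lower. Mgam, the gene of maltase-glucoamylase, which releases glucose from starch fragments, had 0 against 48 reads on 14 circRNAs (at least 32.8-fold lower). Sis, the gene of sucrase-isomaltase, had 0 against 28 on 10 (at least 19.1-fold lower). Lct, which splits lactose, had 0 against 9, and Treh, which splits trehalose, 0 against 1. These genes had many circRNAs with few reads each. The best covered Sis circRNA (exons 7 to 11) held 5 reads, 17.9% (6.06 to 36.9) of the gene.

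Mgam circRNAs mostly had an end where GENCODE M21 shows no exon. Of the 14 with reads, 4 with 13 reads had both ends on exon ends of 1 transcript. Another 9 circRNAs, with 34 reads, had an end inside the introns between exons 31 and 33 of the 48-exon transcript, which are 27990 and 35783 nt long. The best covered Mgam circRNA (chromosome 6, 40724571 to 40750981) was of this kind and had 13 reads, with its downstream end on an exon end. Its junction sequence is not shown, since its upstream end lies outside the transcript sequences used here.

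Peptidase and phosphatase genes held most of the few reads in the library labelled ISC, 10 of 16, against 81 in the library labelled non-ISC (ratio 0.0602, 0.0278 to 0.116). Enpep, the gene of glutamyl aminopeptidase, had 4 against 35 (ratio 0.0557, 0.0144 to 0.156). Anpep, the gene of aminopeptidase N, had 1 against 29 (ratio 0.0168, 4.12e-04 to 0.101). Alpi, the intestinal alkaline phosphatase, had 0 against 8, Mme (neprilysin) 0 against 6 and Ace 0 against 2.

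In the library labelled non-ISC, each of the 3 exon-end circRNAs of Enpep joined the acceptor of exon 2, with 21 reads to exon 8, 9 to exon 11 and 1 to exon 10. In the library labelled ISC a different circRNA used the same acceptor, with 2 reads to exon 3, and another ran from exon 5 to 18 with 2. The leading Anpep circRNA, exons 15 to 19, held 19 of 29 reads, 65.5% (45.7 to 82.1). Anpep had a deposited count of 9454 in the library labelled non-ISC, and its junction reads came to 0.307% of that value.

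Dpp4, the gene of dipeptidyl peptidase 4, which is also known as CD26 on T lymphocytes, had the higher share in the library labelled ISC, but stayed below the minimum. With 5 reads there against 1, the ratio was 2.44 (0.273 to 115), an interval that holds 1. Its circRNAs in the library labelled ISC joined exons 13 to 14, with 4 reads, and exons 20 to 23, with 1. By deposited count Dpp4 had 87 against 313, a ratio of 0.0830, so its direction depends on which value is read.

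Lipid handling genes had 2 reads against 28 (ratio 0.0348, 0.00402 to 0.138). Apob, the scaffold protein of chylomicrons, had 0 against 13 on 8 circRNAs, at least 8.89-fold lower. Mttp, which loads fat onto Apob, had 2 against 11 (ratio 0.0886, 0.00955 to 0.406). With junction reads halved both fell under the minimum and lost their call, at ratios of 0 (0 to 0.254) for Apob and 0.0835 (0.00182 to 0.688) for Mttp. With library totals Mttp lost its call at a ratio of 0.250 (0.0269 to 1.14). Apoa1 and Apoa4, apolipoproteins secreted with chylomicrons, had 0 against 2 each. Fabp2, the intestinal fatty acid binding protein, was listed in the library labelled non-ISC with a count of 574 and 0 junction reads.

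Sterol transport genes had 0 reads against 10, at least 6.84-fold lower. Abcg5 and Abcg8, which together return plant sterols and cholesterol to the lumen, had 0 against 4 and 0 against 3. Npc1l1, which takes cholesterol up, had 0 against 3. None of the 3 reached the minimum of 10 reads, so none was called, although the interval of Abcg5 (0 to 0.738) left out 1.

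Drug efflux genes had 0 reads against 52, at least 35.6-fold lower. Abcc2, an apical pump for conjugated compounds, had 0 against 48 on 5 circRNAs, and Abcb1a, a P-glycoprotein gene, 0 against 4. The Abcc2 circRNAs of exons 12 to 18, 12 to 16 and 3 to 9 had 17, 15 and 10 reads, so that no single circle dominated (leading share 35.4%, 22.2 to 50.5). The acceptor of exon 12 was used by 2 circRNAs with 32 of 48 reads. Cps1, the mitochondrial enzyme that starts urea synthesis, had 0 against 4, and Creb3l3, a transcription factor of lipid metabolism, had an entry with a count of 496 and 0 junction reads in the library labelled non-ISC.

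**Figure D3:**
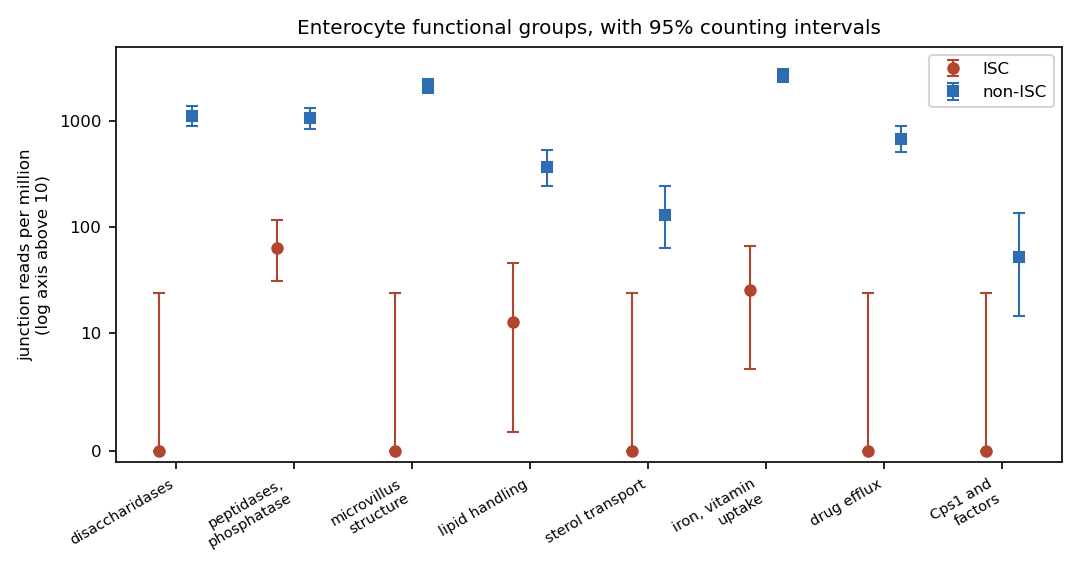
Junction reads per 1000000 junction reads of each library (log axis above 10) summed over 8 functional groups, in the library labelled ISC (circles) and non-ISC (squares), with 95% exact Poisson intervals for counting error. The intervals are separate for every group but that of Cps1 with the transcription factors, where they run from 0 to 23.6 and from 14.3 to 134.

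Most other genes of the same functions with reads, not among the 30, also had the lower share in the library labelled ISC. Of 105 such genes in 6 lists 62 had reads, and 57 of these had the lower share there and 5 the higher one. The 5 were Plin2 (5 against 0), Lipe (3 against 0), Slc11a2 (3 against 0), Sar1b (2 against 0) and Lipa (3 against 1). With no minimum, 29 of the 62 were called lower and 0 higher. The share of all host genes lying in either direction was not computed. Over the lists there were 128 reads against 1012 (ratio 0.0617, 0.0509 to 0.0742). Of the 20 genes with at least 10 reads, 19 were lower, 0 higher and 1 not called, beside the 22.7% lower and 26.7% higher among all host genes. Of these 20, 3 had 10 or more in the library labelled ISC and 14 had 0 there, while 18 reached 10 by the library labelled non-ISC alone, so this count too follows in part from the minimum. With library totals 16 were lower. Of 8 brush border assembly genes with enough reads, 7 were lower, led by Myo7b (0 against 103), a myosin at microvillus tips, and Cobl (0 against 96), an actin nucleator. Ezr, the gene of ezrin, had 5 against 8 (ratio 0.305, 0.0784 to 1.06) and was not called.

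All 5 nutrient transporter genes with enough reads were lower, including the amino acid transporter genes Slc7a8 (11 against 146, ratio 0.0367, 0.0179 to 0.0677) and Slc16a10 (41 against 63, ratio 0.317, 0.209 to 0.478). The call of Slc16a10 was lost with library totals (ratio 0.894, 0.588 to 1.35). Of lipid absorption genes Soat2, which esterifies cholesterol, had 0 against 49 and was lower. Tfrc, the transferrin receptor, which dividing cells also carry, had 39 against 56 (ratio 0.339, 0.220 to 0.52), and its call was lost with library totals (ratio 0.956, 0.619 to 1.46). With that scaling the summed ratio of the 6 lists was 0.174, and that of the other iron and vitamin genes, Tfrc with the iron importer gene Slc11a2, was 1.03 (0.673 to 1.56). Of 9 peptidase and hydrolase genes with reads, Naaladl1 had 0 against 13 and Enpp3 0 against 9. Of 13 enterocyte transcription factor genes with reads, 3 were lower, led by the bile acid receptor gene Nr1h4 (2 against 48, ratio 0.0203, 0.00239 to 0.0775) and Gata6 (0 against 12).

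The functional groups differed in how the deposited count relates to junction reads. In the library labelled non-ISC, junction reads were 48.9% (44.1 to 53.8) of the count for iron and vitamin uptake, 9.59% (7.25 to 12.4) for drug efflux and 2.88% (2.46 to 3.35) for microvillus structure. They were 1.03% (0.824 to 1.27) for disaccharidases, 0.629% (0.50 to 0.781) for peptidases and phosphatase, 0.628% (0.302 to 1.15) for sterol transport, 0.235% (0.0640 to 0.60) for Cps1 with the transcription factors and 0.131% (0.0873 to 0.190) for lipid handling. Over all 30 genes the share was 1.20%, beside 2.44% over all other entries. These shares of summed reads weigh entries by their count, and the median per circRNA was often higher. It was 100% for disaccharidases, where 18 of 30 circRNAs with reads had equal values, 60.7% for microvillus structure, 12.1% over all 30 genes and 100% over all other circRNAs. The sources used here do not say what the count holds or whether it includes the junction reads. The intervals take the junction reads as a part of it.

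Heph and 2 apolipoprotein genes had far apart values. Heph had a deposited count of 214 and 185 junction reads (86.4% of the count, 81.1 to 90.7), and for 11 of its 12 circRNAs both values were equal. For Cubn the share was 10.1% (6.39 to 15.1). Apoa4 had a count of 10988 with 2 junction reads, and Apoa1 had 3697 with 2. By count, lipid handling was the largest group in the library labelled non-ISC, with 21323 reads, against 421 for iron and vitamin uptake. By junction reads their order was the opposite, with 28 against 206. Among entries of all the genes chosen by name, 20 of 125 in the library labelled non-ISC (16%, 10.1 to 23.6) had no junction read. In the library labelled ISC it was 0 of 7. The whole list of that library held 0 such entries of 18438, against 6122 of 18324 in the library labelled non-ISC. The 0 of 7 therefore follows from the list and says nothing about these genes. The 20 came from 15 genes and had counts of 5 to 1961 (median 154). Of all other entries in the library labelled non-ISC 33.5% (32.8 to 34.2) had none, with a median count of 19.

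**Figure D4:**
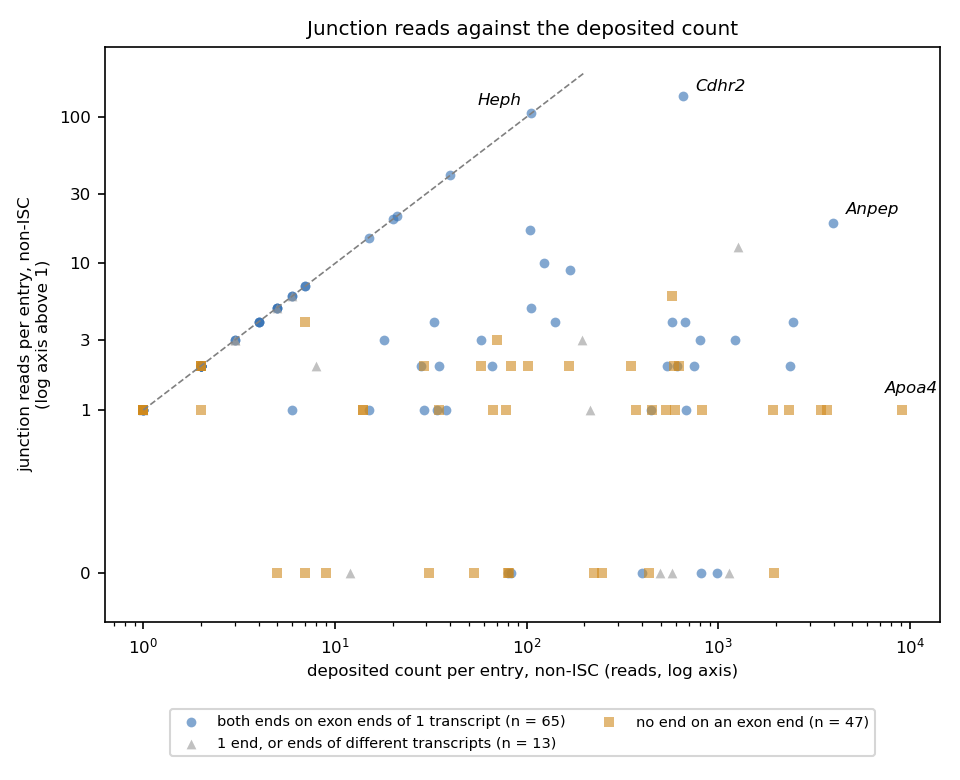
Junction reads (y axis, log above 1) against the deposited count (x axis, log) of the 125 entries in the library labelled non-ISC. Blue circles have both ends on exon ends of 1 transcript, grey triangles 1 end or ends of different transcripts, orange squares none, and the dashed line marks equal values. The leading Heph circRNA lies on the line at 106, while the Apoa4 entry with a count of 9052 has 1 junction read.

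Junction ends of these genes lay on annotated exon ends for most but not all circRNAs. Among 105 with reads in the library labelled non-ISC, 60 (57.1%, 47.1 to 66.8) had both ends on exon ends of 1 transcript, beside 75.3% (74.5 to 76.1) of 12097 other circRNAs. They held 85.1% of the reads, beside 88.5%. No end lay on an exon end for 36 (34.3%, 25.3 to 44.2), beside 13.8% (13.1 to 14.4). CircRNAs of 1 gene share a transcript and its depth, so these circRNAs are not independent. In the library labelled ISC 6 of 7 were on exon ends.

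The groups again differed, but several rest mostly on 1 gene, and their shares are largely those of that gene. All reads of microvillus structure (160 of 165 from Cdhr2), drug efflux (48 of 52 from Abcc2) and Cps1 circRNAs (4 reads) lay on exon ends. So did 94.7% (90.6 to 97.3) for iron and vitamin uptake, where Heph held 185 of 206 reads and Cubn had 15 of 21 on exon ends. The share was 75.3% (64.5 to 84.2) for peptidases and phosphatase and 70% (34.8 to 93.3) for sterol transport. It was 52.3% (41.3 to 63.2) for disaccharidases and 32.1% (15.9 to 52.4) for lipid handling. These intervals treat reads of the same circRNA as independent. None of the 8 Apob circRNAs with reads, nor those of Apoa1 and Apoa4, had an end on an exon end. Over entries with no end on an exon end, junction reads were 0.195% (0.148 to 0.253) of the count, against 2.77% (2.55 to 3.01) for entries on exon ends of 1 transcript. The medians per circRNA with reads were 2.19% and 100%, and 31 of the 60 on exon ends had equal values.

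For 27 circRNAs with reads in either library, both ends lay inside exons of 1 transcript but on no exon end, and 19 of them lay in 1 exon. The letters just outside such a circle were read from the transcript. All 27 had 1 of 6 letter pairs known from splice sites of either strand, and so had all 1353 such circRNAs of other host genes. The pair AC before and AT after, the letters of the rare AT-AC introns on the gene's strand, was found for 12 (44.4%, 25.5 to 64.7), beside 43.7% (41.0 to 46.4). The usual pair AG before and GT after was found for 0 of 27 (0 to 12.8), beside 8.13% (6.73 to 9.72). Of the other 15, 2 had GC-AG on the gene's strand, 4 had GT-AG, 2 had GC-AG and 7 had AT-AC on the opposite strand. A match to these letters is a description and not a splice site.

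By annotation, the exon-end circles enclosed several exons each. The 60 in the library labelled non-ISC, from 18 host genes, enclosed a median of 5 exons (quartiles 3 and 8) and 749.5 nt (458 and 1142), beside 3 exons (2 and 5) and 493 nt (342 and 761) over 9108 others. None was a single exon (0 of 60, 0 to 5.96%), beside 4.42%. The first exon enclosed was exon 2 in 6 of 60 (10%, 3.76 to 20.5), beside 29.3% (28.4 to 30.3). Of the 60, Heph gave 10 and Sis 9, and all 3 of Enpep began at exon 2. The intervals treat such circles as independent, which they are not. The intron upstream was 2892.5 nt long at the median (1699 and 7136), beside 5735 nt (2320 and 15422), with broad overlap of the quartiles.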

How the data were processed

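Ribosomal RNA was removed and linear RNA digested with RNase R before paired-end sequencing, per the labels' protocols. Trimmomatic 0.36, FastQC and mm9 stand in the submitters' processing notes. The aligner and the tool that called circRNAs are not given there. Each deposited list holds for every circRNA its count, its RPM and its junction count, per the file headers. The RPM values of the authors are the count per 1000000 of library totals of 52636694 (ISC) and 72271995 (non-ISC) reads.

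Coordinates were read as GRCm38 and not mm9, counted from 1, since 79.4% and 76.6% of starts of the 2 lists lie on exon starts of GENCODE M21. Exon numbers follow a protein-coding transcript holding both ends. Enclosed exons and spliced lengths take every annotated exon between the ends as joined. Skipped exons and kept introns were not checked. RefSeq (GRCm38.p6) gave older names. Entries marked * have no host gene and were left out of host gene calls. Calls and intervals used Python 3.11.15 and scipy 1.17.1, and the call rule was checked on simulated libraries. Both mates of a pair can cross 1 junction, which the intervals do not take into account. Genes named are all 27 with an entry, circRNAs with 10 reads and, of other lists, the 2 genes with most reads, except 1 gene that is not reported here. Ezr (not called) and Plin2, Lipe, Sar1b and Lipa (higher share) were added after their values were seen. Members and lists were chosen with earlier results of these data known. Marker lists not given above had 3 reads against 3 (B lymphocyte), 27 against 3 (myeloid), 651 against 12 (stromal, 649 against 12 from Zeb1 alone, with the collagens, Pdgfrb, Dcn, Acta2 and Myh11 at 0 in both), 67 against 7 (endothelial, all from Pecam1), 2 against 59 (goblet and Paneth) and 11 against 36 (enteroendocrine and tuft), ISC against non-ISC. Alternatives were other scalings, the deposited count, halved reads, other minimums and leaving out the leading gene.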

Additional observations from a re-analysis of the deposited data

How the results depend on the processing

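Ratios are of the library labelled ISC over the library labelled non-ISC. With library totals the ratio was 0.0348 for the 30 genes, 0.170 for peptidases and phosphatase, 0.0267 for iron and vitamin uptake and 0.174 for the other enterocyte lists, which gave 0.0759 with median-ratio scaling. With the deposited count these ratios were 8.8e-04 for the 30 genes, 0.00345 for peptidases and phosphatase, 2.8e-05 for lipid handling and 0.00932 for the other lists. Lower calls with the count were 27 host genes, 78 circRNAs and 67 genes of the other lists, and higher calls 3 circRNAs and 1 gene of the other lists. With reads halved, 6 circRNAs and 12 genes of the other lists were lower. With a minimum of 5 reads 22 circRNAs were lower, and with 20 reads 5 circRNAs and 12 genes of the other lists. With no minimum, 17 host genes, 31 circRNAs and 29 genes of the other lists were lower. The share of all host genes or circRNAs called was computed for the main setting only. Counts of calls under the other settings therefore have no such share beside them. The other lists gave 0.147 when restricted to circRNAs read in both libraries, and the 30 genes gave no value, since they had none. Without Heph, iron and vitamin uptake gave 0.0929. No summed ratio of the 30 genes or their groups passed 1 under these settings. Of the other lists, that of iron and vitamin uptake gave 1.03 with library totals. The deposited count scaled to library totals, added after the data were seen, gave 0.00405 for the 30 genes. The causes were not tested. No paired analysis was possible because each group has 1 library and the groups share fewer than 2 replicate numbers. Depth limits the 17 genes under 10 reads with an entry.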
